A study of Mus musculus with 4 samples.

Results

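The genes described here encode the GSK-3 kinases, the proteins that bind them and the β-catenin destruction complex. They are the kinases Gsk3a and Gsk3b, the binding proteins Frat1, Frat2 and Gskip, the scaffolds Axin1 and Apc, the priming kinase Csnk1a1, the substrate Ctnnb1 and the ubiquitin ligase receptor Btrc. Members were all probe sets whose only gene symbol in the array's annotation is one of these 10 names. This gave 32 probe sets, of 34945 probe sets and 18193 genes with 1 symbol. The level of each was measured in total RNA of mouse heart on single-colour Affymetrix arrays. The wild-type group holds 2 arrays of wild-type C57B6 hearts at baseline, from mice aged 3.6 months. The knock-in group holds 2 arrays of C57B6 hearts of the same age, also at baseline, carrying GSK-3alpha S21A, a GSK-3α with alanine in place of serine 21. The labels name no driver, Cre line or treatment. They do not say whether 1 or both alleles carry the change, or whether the 2 arrays of a group come from separate mice. The comparison asks whether the transcripts of the GSK-3 machinery itself differ in hearts that carry a GSK-3α without the serine 21 site.

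GSK-3 is a kinase that is active in resting cells and is switched off by signals. Insulin acts through Akt, which phosphorylates an N-terminal serine (serine 21 in GSK-3α) and so blocks substrate binding. Wnt ligands act on a separate pool of the kinase, held on the scaffold proteins AXIN1 and APC together with β-catenin. In that complex casein kinase 1α places the first phosphate on β-catenin, GSK-3 adds more, and β-TrCP, the product of Btrc, then marks β-catenin for the proteasome. In heart muscle β-catenin also sits in the intercalated disc, where it links cadherins to the actin skeleton, and both GSK-3 forms are known for effects on growth and metabolism of cardiomyocytes.

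The upstream sequences of the 2 kinase genes are shown because these genes held the member probe sets with the largest differences between the groups. Promoters of 6 of the 10 genes were in the RefSeq table of build GRCm38.p6. The 250 bases before each start site follow, 5′ to 3′ on the gene's strand. Capitals mark CCAAT, the GC box GGGCGG and the core CTTTG of the TCF/LEF motif, on either strand, and no marked motifs overlap. The Gsk3a sequence lies at chr7:25237852-25238101 on the minus strand, and the Gsk3b sequence at chr16:38088751-38089000 on the plus strand.
Gsk3a: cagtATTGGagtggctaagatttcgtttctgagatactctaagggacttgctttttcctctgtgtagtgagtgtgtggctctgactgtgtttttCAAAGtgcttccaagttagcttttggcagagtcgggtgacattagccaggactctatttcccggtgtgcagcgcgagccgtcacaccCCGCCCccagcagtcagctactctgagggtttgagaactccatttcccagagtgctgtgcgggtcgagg
Gsk3b: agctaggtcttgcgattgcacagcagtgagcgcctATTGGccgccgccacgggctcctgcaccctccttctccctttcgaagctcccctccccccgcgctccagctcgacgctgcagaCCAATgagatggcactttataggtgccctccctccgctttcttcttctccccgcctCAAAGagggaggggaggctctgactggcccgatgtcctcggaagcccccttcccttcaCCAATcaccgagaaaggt
The Gsk3a sequence held 1 CCAAT, 1 GC box and 1 CTTTG core, with the GC box starting 69 bases before the start site. The Gsk3b sequence held 3 CCAAT, no GC box and 1 CTTTG core. Of 32851 RefSeq promoter entries, 33.8% held CCAAT, 32.7% the GC box and 48.6% the CTTTG core in the same window, so each motif is common. The Gsk3a window is 52.0% G and C with 9 CG dinucleotides, against 62.0% and 15 in Gsk3b and a median of 6 CG over all entries. These are matches of letters and say nothing of binding in these hearts.

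Cardiac identity was clear on all 4 arrays. All 10 cardiomyocyte markers were above the array medians and their median log2 value lay between 14.33 and 14.44. Markers of liver moved with genotype: 14 of 14 measured were higher in knock-in hearts, 13 of them at an unadjusted p under 0.05 but 0 past the limma test after adjustment, with a summed linear signal of 850 to 1315 in wild-type and 3366 to 8940 in knock-in arrays, the highest on knock-in replicate 1. By the mean of all 4 arrays, 2 of these markers (Apoc3 and Fgb) lay below the array medians of 6.14 to 6.23. By the wild-type mean alone, Cyp3a11, Fabp1, Apoa1, Fga, Hpx and Fgg did too (4.64 to 6.01). Alb, Serpina1c, Cyp2e1, Ttr, Ahsg and Tat lay above the array medians in wild-type hearts. Endothelial markers were higher in 7 of 8 (summed signal 8042 to 8439 against 8685 to 9693) and fibroblast markers in 8 of 8 (19484 to 20076 against 20873 to 23365). These markers were bright, with means above 8. Of all probe sets with a mean log2 value between 8 and 10, 67.7% were higher in knock-in hearts. For those of at least 10 the share was 69.2%. Immune markers were higher in 5 of 7, smooth muscle and pericyte markers in 3 of 6, skeletal muscle markers in 2 of 6, lung markers in 1 of 4 and adipocyte markers in 3 of 4, all 4 of which lay below the array medians. The 3′ minus 5′ signal of Gapdh, a sign of RNA quality, was 0.54 to 0.76 on the log2 scale and highest on knock-in replicate 2. The part of these shifts in the results below was not tested.

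No member gene passed the test between the genotypes. Lower signals of Gsk3a and of 1 of 6 Gsk3b probe sets in knock-in hearts were the only differences with an unadjusted p under 0.05, 1.34-fold and 1.35-fold. The substrate gene Ctnnb1 was slightly higher by all 3 of its probe sets, as were most probe sets of like brightness. Of the 32 probe sets 0 had a limma adjusted p under 0.05, against 3 of all 45037 (0.00666%). At an unadjusted p under 0.05 the count was 2, or 6.25%, against 10.7% of all probe sets (2283 higher and 2530 lower in knock-in hearts, but 3768 and 1294 with arrays shifted to 1 median and 2425 and 1565 after cyclic loess). The groups did not overlap for 9 member probe sets (28.1%), against 45.2% of all. Each of these counts is at or under the background share, so none is a result about these genes as a set. A difference of at least 0.25 in either direction on the log2 scale was seen in 6 members (18.8%), against 19.8% of all probe sets. By the RMA values 14 of the 32 were higher and 18 lower in knock-in hearts, with a median log2 difference of −0.01 against −0.04 over all probe sets. That split depends on the scaling: with each array shifted to 1 median it was 22 higher and 10 lower, after quantile normalisation 13 and 19, and after cyclic loess 15 and 17. Precision was like that of other genes, with standard errors of 0.10 to 0.28 (median 0.13, against 0.12 over all).

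**Figure D1:**
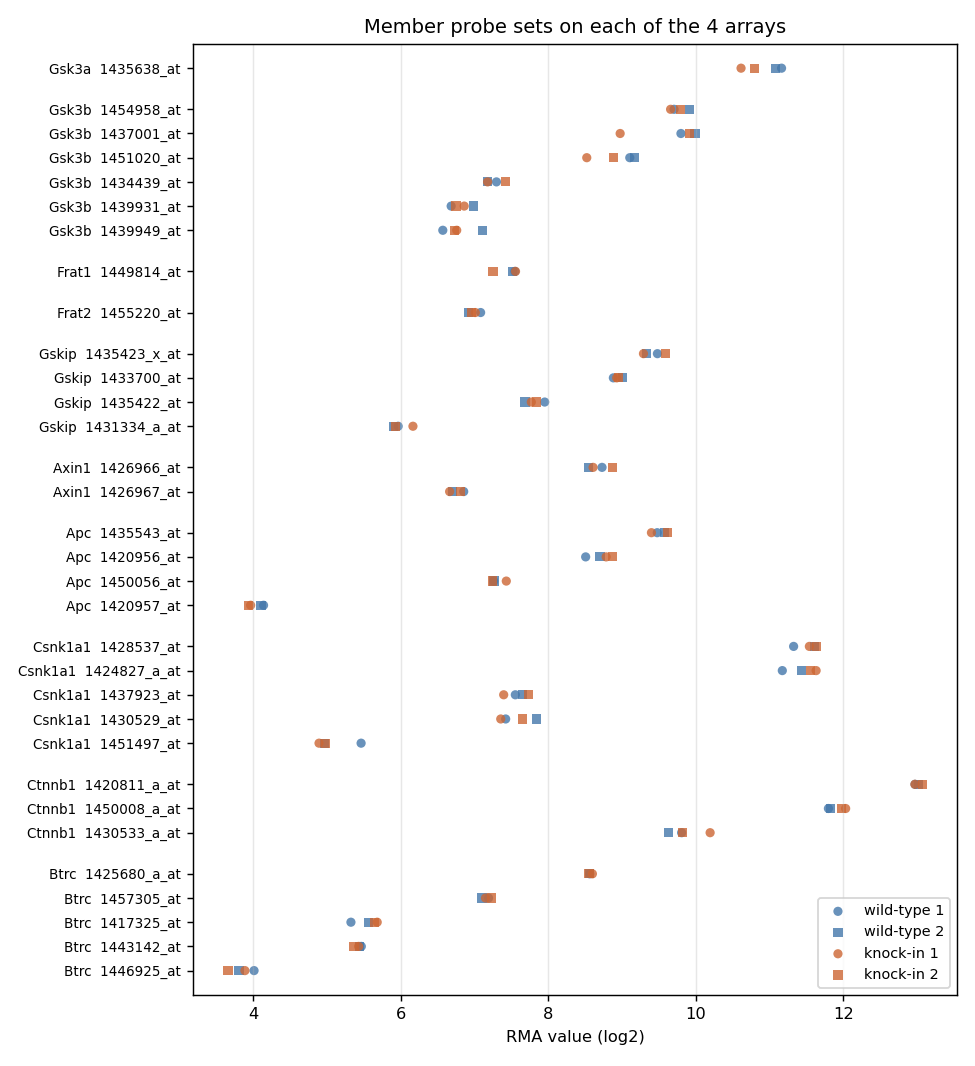
RMA values (log2, horizontal axis) of the 32 member probe sets, grouped by gene from top to bottom, with 1 point per array: blue for wild-type, orange for knock-in, circles for replicate 1 and squares for replicate 2. Both knock-in points lie left of both wild-type points for Gsk3a and for the Gsk3b probe set 1451020_at, while most other probe sets have intermixed colours.

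The targeted gene was read by 1 probe set (1435638_at). Gsk3a gave log2 values of 11.16 and 11.08 in wild-type hearts and 10.62 and 10.80 in knock-in hearts. Both knock-in arrays were below both wild-type arrays, and the lowest was knock-in replicate 1. Its log2 difference, knock-in minus wild-type, was −0.42 with a standard error of 0.12 (95% interval −0.70 to −0.14), a 1.34-fold lower signal. After adjustment over all 45037 probe sets this was not a call (limma adjusted p = 0.458, and 0.212 to 0.886 over the alternatives). The sign of the difference was the same in all alternatives, which ranged from −0.51 to −0.33, but most of them could not have changed it. Block, filters, prior, weights and threshold leave this estimate as it is, and groups that do not overlap keep their sign with 1 array left out. Rescaling the arrays could have changed it. The difference was −0.36 with arrays shifted to 1 median, −0.49 after quantile normalisation and −0.49 after cyclic loess. A substitution of 1 amino acid leaves the transcript measurable, so this value is no check of the genotype labels.

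Most probe sets as bright as that of Gsk3a had the opposite sign. Of the 4291 probe sets with a mean log2 value of at least 10, 69.2% were higher in knock-in hearts, with a median difference of 0.06. A difference as low as that of Gsk3a was seen in 37 of them (0.862%). Of the 5 member probe sets in this class the other 4, of Csnk1a1 and Ctnnb1, were all higher. This share describes where Gsk3a lies and takes no account of the spread between arrays. In RNA of a tissue a lower level per cell and a smaller share of expressing cells cannot be told apart.

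The sister kinase gene Gsk3b was read by 6 probe sets, and they did not give 1 answer. Its brightest probe set (1454958_at) gave 9.71 and 9.92 in wild-type and 9.66 and 9.80 in knock-in hearts. The groups overlapped, and the difference was −0.09 (95% interval −0.39 to 0.21). Probe set 1451020_at gave 9.11 and 9.17 in wild-type hearts and 8.52 and 8.88 in knock-in hearts. There the groups were apart, by −0.44 ± 0.14 (standard error), with 95% limits of −0.78 and −0.09 (limma adjusted p = 0.458). Among the 7763 probe sets with a mean between 8 and 10, a difference as low was seen in 55 (0.708%). For 1437001_at, described next, the count was 47 (0.605%). These shares were taken only for the lowest of the 6 Gsk3b probe sets. They take no account of that choice or of the spread between arrays.

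Another Gsk3b probe set (1437001_at) had a difference of −0.45 that rested on 1 array. It gave 9.80 and 9.99 in wild-type hearts, 8.98 on knock-in replicate 1 and 9.92 on knock-in replicate 2. Without knock-in replicate 1 the difference was 0.02. The array that was low here was also the one with the lowest value of 1451020_at and the most liver marker signal; whether these are linked was not tested. The 3 dimmer Gsk3b probe sets (1434439_at, 1439949_at and 1439931_at) differed by 0.06, −0.09 and −0.03, with overlapping groups. Averaged over its 6 probe sets on each array, Gsk3b gave 8.19 and 8.39 in wild-type and 7.99 and 8.25 in knock-in hearts. The difference of that mean was −0.17 (95% interval −0.47 to 0.12, limma adjusted p = 0.571). The parts of the transcript that each probe set reads were not analysed here.

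Whether Gsk3a differed more than Gsk3b was asked within each array. The log2 value of Gsk3a minus that of the brightest Gsk3b probe set was 1.46 and 1.16 in wild-type hearts and 0.96 and 0.9996 in knock-in hearts. The groups did not overlap, and their means differed by −0.33. A two-sided exact permutation test over the arrays gave p = 0.333, the smallest value that 2 arrays against 2 allow. With all 6 Gsk3b probe sets averaged the value was −0.25, and leaving out 1 array gave −0.48 to −0.18. With these arrays the test could not have passed the threshold, so it does not settle whether the kinase genes differed from each other.

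**Figure D2:**
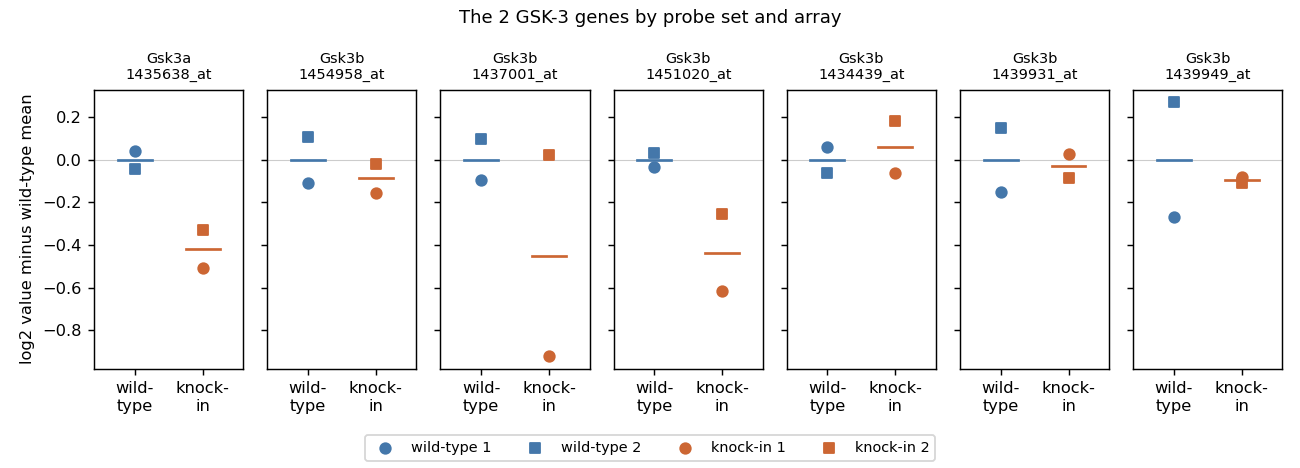
Log2 value minus the wild-type mean of the same probe set (vertical axis) for Gsk3a and the 6 probe sets of Gsk3b, with 1 point per array (blue wild-type, orange knock-in, circles replicate 1, squares replicate 2) and lines at the group means. Gsk3a and Gsk3b 1451020_at have both knock-in points below both wild-type points, and in Gsk3b 1437001_at knock-in replicate 1 alone is far below the rest.

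The binding proteins of GSK-3 showed differences smaller than their standard errors at all 6 of their probe sets. Frat1, whose product binds GSK-3 and keeps it from AXIN, gave 7.55 and 7.52 in wild-type hearts and 7.56 and 7.25 in knock-in hearts. Only knock-in replicate 2 was low, and the difference was −0.13 (95% interval −0.45 to 0.19). Frat2, its close relative, gave 7.08 and 6.92 against 7.01 and 6.96, a difference of −0.01 (−0.29 to 0.26). Gskip encodes a small protein that binds GSK-3 and protein kinase A. Its brightest probe set (1435423_x_at) gave 9.48 and 9.34 in wild-type and 9.29 and 9.59 in knock-in hearts, a difference of 0.03 (−0.30 to 0.36). That probe set is of a design that may also read related transcripts. The other Gskip probe sets (1433700_at, 1435422_at and 1431334_a_at) differed by −0.01, −0.01 and 0.11. For the Frat genes and Gskip, all groups overlapped.

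The scaffold genes Axin1 and Apc had differences of both signs. Axin1, which encodes the scaffold that limits the amount of destruction complex, gave 8.73 and 8.54 in wild-type hearts and 8.61 and 8.87 in knock-in hearts by its brighter probe set (1426966_at). The groups overlapped, with a difference of 0.10 (95% interval −0.22 to 0.43), and the dimmer one (1426967_at) differed by −0.04. Apc, the tumour suppressor scaffold, had 4 probe sets with differences from −0.17 to 0.22. The brightest (1435543_at) gave 9.48 and 9.57 against 9.40 and 9.62, a difference of −0.02 (−0.31 to 0.28). In 1420956_at both knock-in arrays (8.79 and 8.87) were above both wild-type arrays (8.51 and 8.70), a difference of 0.22 with an interval from −0.06 to 0.51. In 1420957_at they were below, at 3.96 and 3.93 against 4.14 and 4.10, a difference of −0.17 at a level under the array medians. The remaining probe set (1450056_at) differed by 0.08.

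Csnk1a1, which encodes casein kinase 1α, was higher by its bright probe sets and lower by its dim ones. The brightest (1428537_at) gave 11.33 and 11.61 in wild-type hearts and 11.54 and 11.63 in knock-in hearts. Wild-type replicate 1 alone was low, and the difference was 0.12 (95% interval −0.19 to 0.44). In 1424827_a_at the groups did not overlap, at 11.17 and 11.43 against 11.63 and 11.56, a difference of 0.29 with a standard error of 0.13 (−0.02 to 0.60). The dimmer probe sets 1437923_at, 1430529_at and 1451497_at differed by −0.04, −0.13 and −0.28, the last at a mean of 5.08. The same order was seen over all probe sets, since the median difference was −0.10 for those with a mean under 6 and 0.06 for those of at least 10. Averaged over its 5 probe sets Csnk1a1 differed by −0.01 (−0.25 to 0.23).

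Ctnnb1, which encodes β-catenin, was higher in knock-in hearts by each of its 3 probe sets, without passing the test. So were most probe sets of like brightness, at 69.2% of all with a mean of at least 10 (median difference 0.06). Of those with a mean between 8 and 10, the class of 1430533_a_at, 67.7% were higher (median 0.07). The brightest (1420811_a_at) gave 12.97 and 13.02 in wild-type and 12.97 and 13.08 in knock-in hearts. These overlapped, and the difference was 0.03 (95% interval −0.23 to 0.29); it turned to −0.03 after quantile normalisation or cyclic loess, and to −0.02 without knock-in replicate 2. In 1450008_a_at the values were 11.80 and 11.82 against 12.03 and 11.98, a difference of 0.19 (−0.06 to 0.44). In 1430533_a_at they were 9.81 and 9.64 against 10.20 and 9.82, a difference of 0.29 (−0.08 to 0.66). Both of these had knock-in arrays above wild-type arrays, by a narrow margin in the second. Averaged over the 3 probe sets Ctnnb1 differed by 0.17 ± 0.09 (standard error), with 95% limits of −0.05 and 0.39 (limma adjusted p = 0.483). Transcript levels do not measure β-catenin protein, which the destruction complex controls.

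Btrc gave the flattest record at its brightest probe set. In 1425680_a_at wild-type arrays gave 8.56 and 8.56 and knock-in arrays 8.60 and 8.55, a difference of 0.01 (95% interval −0.24 to 0.26). The next (1457305_at) differed by 0.04. The other 3 Btrc probe sets (1417325_at, 1443142_at and 1446925_at) lay below the array medians and differed by 0.22, −0.05 and −0.14. Of those, 1417325_at had both knock-in arrays (5.68 and 5.65) above both wild-type arrays (5.32 and 5.56), and 1443142_at had the knock-in arrays (5.43 and 5.37) just below (5.47 and 5.44).

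**Figure D3:**
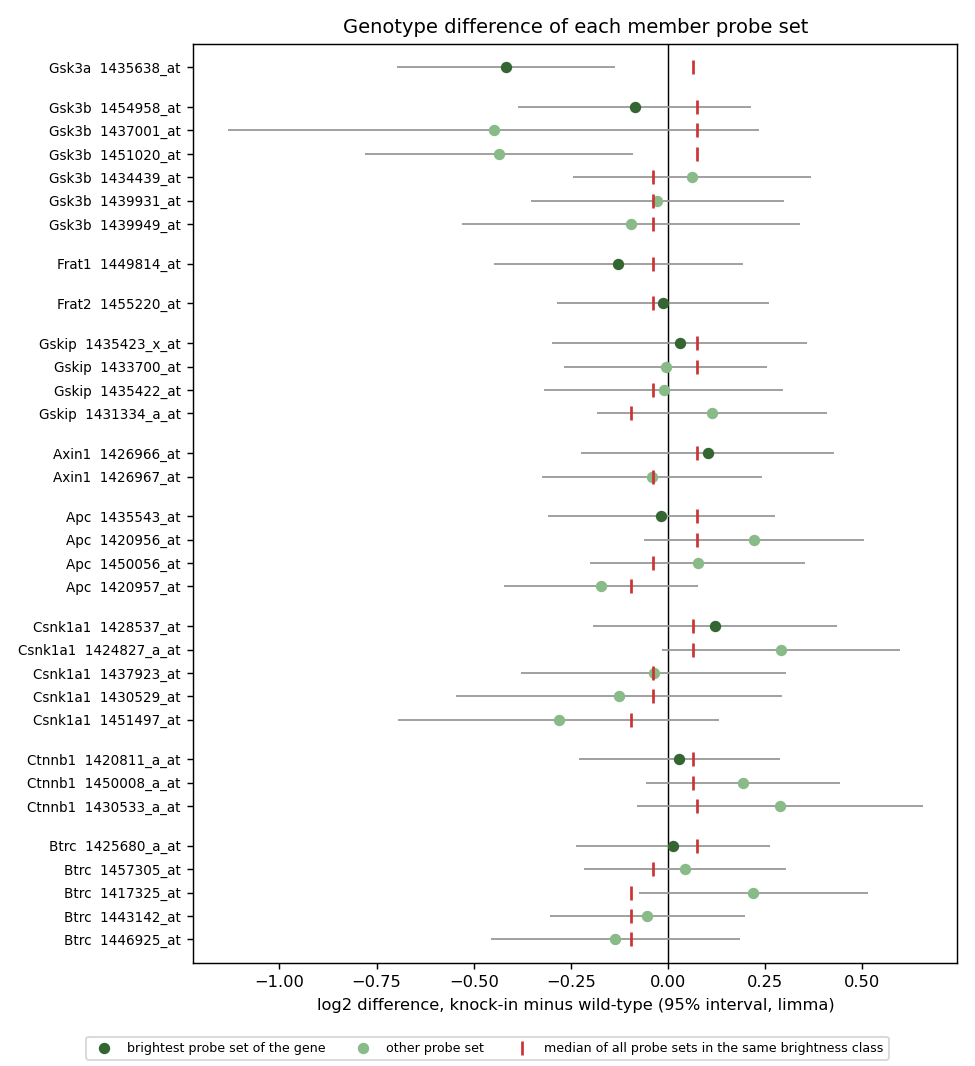
Log2 difference, knock-in minus wild-type, of each member probe set (horizontal axis) with its 95% interval from limma. Dark points are the brightest probe set of a gene, light points the others, and red bars the median of all probe sets of the same brightness class (mean log2 under 6, 6 to 8, 8 to 10, and 10 or more). The intervals of Gsk3a and Gsk3b 1451020_at are the only ones that leave out 0, before adjustment.

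In the wider pathway, 88 of 91 listed genes were measured, and 0 passed the test over all probe sets. Each was read by its brightest probe set, and 9 (10.2%) had an unadjusted p under 0.05, 6 of them higher and 3 lower, against 10.2% of all genes. Of the 88 genes 59 were higher and 29 lower in knock-in hearts, with a median log2 difference of 0.07. Over all genes 46.9% were higher and the median was −0.01. Bright probe sets were more often higher, at 67.7% of all with a mean between 8 and 10 (median 0.07). Of those with a mean of at least 10, 69.2% were higher (median 0.06). The split of the 88 genes moved with the scaling. After quantile normalisation 46 were higher and 42 lower, and after cyclic loess 48 and 40. With arrays shifted to 1 median 67 were higher and 21 lower. With a gene's probe sets averaged, the medians of the scaffold and Wnt receptor lists turned to −0.06 and −0.01. The scaffold median was also −0.01 without knock-in replicate 2. The genes named next had the smallest limma p of each list, and their differences are values, not calls.

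Among other scaffolds and the proteins that control their turnover, 9 of 16 were higher and 7 lower (median 0.06). Dact1, which encodes a Dishevelled-binding protein, gave 7.47 and 7.53 in wild-type hearts and 7.93 and 7.99 in knock-in hearts, a difference of 0.46 ± 0.11 (standard error). Its relative Dact3 differed the other way, by −0.38, at 9.35 and 9.17 against 8.83 and 8.92, and its 4 probe sets lay between −0.48 and −0.17. The groups were apart in both, and neither passed (limma adjusted p = 0.458 for each). The ubiquitin ligase gene Siah1a differed by 0.30, while its other probe sets reached down to −0.08. Of the other priming kinases 5 of 9 were higher (median 0.10). The casein kinase 1γ genes Csnk1g1 and Csnk1g3 differed by 0.43 and 0.46, and Dyrk1a by 0.16. A probe set of Csnk1g1 lay at −0.06, and the mean of its 3 probe sets differed by 0.14. Without wild-type replicate 1 Csnk1g3 differed by 0.18 and Dyrk1a by 0.10.

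Genes of the phosphatases that oppose these kinases were higher in 11 of 13 (median 0.05), and after quantile normalisation or cyclic loess that median was −0.02. Ppp1cb, a catalytic subunit of protein phosphatase 1, differed by 0.48, with wild-type replicate 1 low at 10.48 beside 10.99 on the other wild-type array and 11.37 and 11.06 in knock-in hearts. The catalytic subunit gene Ppp2ca of protein phosphatase 2A differed by 0.26 and the regulatory subunit gene Ppp2r5b by −0.21, and another Ppp2ca probe set lay at −0.11. Without wild-type replicate 1 these values were 0.22 for Ppp1cb, 0.08 for Ppp2ca and −0.02 for Ppp2r5b. In the SCF ubiquitin ligase, which carries β-TrCP, 7 of 9 were higher (median 0.08). That median was 0.03 without wild-type replicate 2, 0.15 when knock-in replicate 1 was left out, 0.002 after quantile normalisation and 0.015 after cyclic loess. Its conjugating enzyme gene Ube2r2 differed by 0.26, the RING subunit gene Rbx1 by −0.18 and Fbxw11, the paralogue of Btrc, by 0.23 by its brightest probe set, with others down to −0.19. Without wild-type replicate 1 Fbxw11 differed by 0.02, and leaving out knock-in replicate 1 gave 0.15 for Ube2r2 and −0.07 for Rbx1.

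Of the Wnt receptor genes 12 of 18 were higher (median 0.07, but 0.02 without wild-type replicate 1 and 0.14 without wild-type replicate 2), and the 3 Frizzled genes of smallest p did not share a direction. Fzd2 gave 7.16 and 7.10 in wild-type and 6.39 and 6.88 in knock-in hearts, a difference of −0.49. Fzd7 differed by 0.49, from 6.71 and 6.97 to 7.12 and 7.53, and Fzd6 by 0.36. Each of these genes had another probe set of the opposite sign, at 0.06 for Fzd2, −0.25 for Fzd7 and −0.24 for Fzd6. Leaving out 1 array brought Fzd2 to −0.25 (knock-in replicate 1), Fzd7 to 0.28 (knock-in replicate 2) and Fzd6 to 0.21 (wild-type replicate 1). Nuclear partners of β-catenin were split, with 6 of 12 higher and a median of −0.01, which was 0.05 with arrays shifted, 0.02 without wild-type replicate 1 and 0.06 when knock-in replicate 1 was left out. Tcf7l1, which encodes the TCF factor best known as a repressor of Wnt target genes, gave 9.31 and 9.19 against 8.80 and 8.95, a difference of −0.37 ± 0.12 (limma adjusted p = 0.458); its other probe set lay at 0.01. Tle1 and Tcf7l2 differed by 0.28 and 0.23, but Tcf7l2 had probe sets down to −0.23, and the mean of its 4 probe sets differed by 0.01. Without wild-type replicate 1 Tcf7l2 differed by 0.11.

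Cadherin, catenin and other cell junction genes were higher in 9 of 11 (median 0.11, and 0.04 after quantile normalisation or with a gene's probe sets averaged, 0.05 after cyclic loess). The endothelial cadherin gene Cdh5 differed by 0.20, the desmoplakin gene Dsp by 0.25 and N-cadherin, Cdh2, by 0.23. The other Cdh5 probe set lay at −0.19, and the mean of both differed by 0.003. In Cdh2 wild-type replicate 1 was low, at 11.44 beside 11.81, with knock-in values of 11.90 and 11.82, and without that array Cdh2 differed by 0.04, Dsp by 0.14 and the median of the list was 0.04. Endothelial markers, of which Cdh5 is 1, were higher in the same arrays, as given above.

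**Figure D4:**
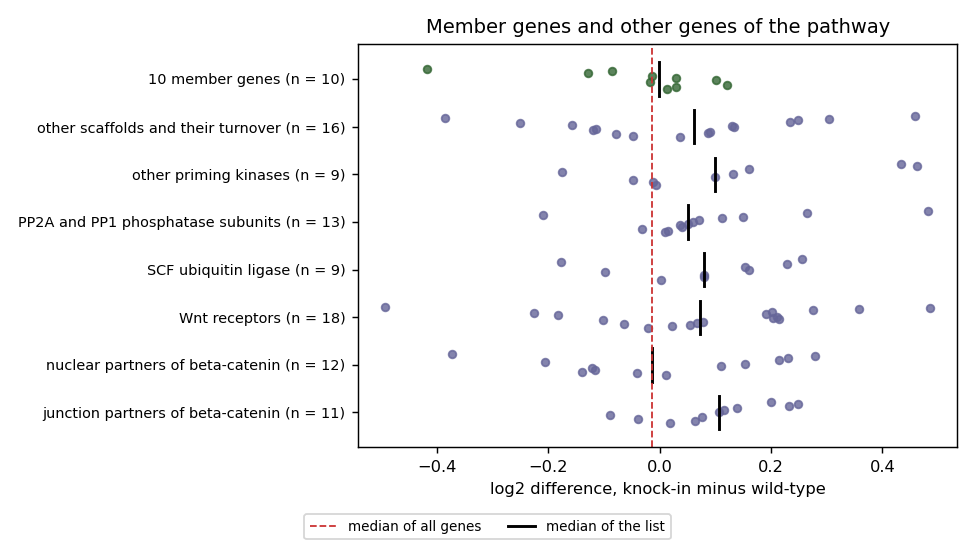
Log2 difference, knock-in minus wild-type (horizontal axis), of the 10 member genes (green) and of the genes of 7 other lists of the pathway (violet), each by its brightest probe set, with a black bar at the list's median and a dashed line at the median of all genes (−0.01). Medians lie between −0.01 and 0.11, and single genes reach from −0.49 to 0.49.

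Among 9873 other genes with a mean of at least 7, the patterns most like that of Gsk3a over the 4 arrays were those of Tcf7l1, Pycard and Rftn1. Likeness was the root mean square distance between log2 values centred on each gene's own mean, and it was 0.027, 0.029 and 0.034. These genes differed by −0.37, −0.47 and −0.41 in knock-in hearts. For Gsk3b by its brightest probe set they were Bsdc1, Cbfa2t2 and Arhgap39, at distances of 0.007, 0.012 and 0.014. The names are a description over 4 arrays.

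The measured genes next to Gsk3a on chromosome 7 had differences of both signs. In the order of the gene table they were D930028M14Rik, Dedd2 and Zfp526 on one side and Erf, Cic and Pafah1b3 on the other. Their differences were −0.12, 0.44 and 0.11, and −0.03, −0.18 and 0.16. Dedd2 had the largest of these, at 7.35 and 7.37 in wild-type hearts and 7.75 and 7.85 in knock-in hearts, with a standard error of 0.11 and no call (limma adjusted p = 0.458).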

How the data were processed

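Single-colour Affymetrix arrays of heart RNA were compared, 2 wild-type and 2 knock-in. The deposited values are log2 RMA summaries per probe set, made by the authors with Affymetrix Expression Console, as the submitters' processing notes say. Per the labels, the wild-type scans were processed with the GSK-3α arrays only. RMA is meant to remove differences that most probe sets share, but the array medians still ranged from 6.14 (knock-in replicate 2) to 6.23 (wild-type replicate 1). Software version, filters and batches: not given in the sources used here.

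Of 45101 probe sets 64 controls were left out and 45037 tested with limma 3.58.1 in R 4.3.3 (lmFit, eBayes, no covariate; 2 residual and 4.54 prior degrees of freedom), with Benjamini-Hochberg adjustment and a threshold of 0.05. The fit was tested on simulated data with changes larger than any member difference, so how often it finds differences of the members' size was not tested. Symbols came from the array annotation; 932 probe sets with several were not named. A gene's brightest probe set stands for it. Named genes were all members, the 3 of smallest p in each list, the 3 patterns nearest each kinase and 3 neighbours a side. Members and lists were chosen with earlier results of these data known. Listed genes without such a probe set (Siah1b, Csnk2b, Tcf7 and some markers) were not analysed. If arrays of a group are not separate animals, p-values measure technical spread. The number of arrays limits the precision. Alternatives covered normalisation, dim and cross-hybridising probe sets, prior, array weights, replicate block, threshold and each array left out.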

Additional observations from a re-analysis of the deposited data

How the results depend on the processing

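No member probe set passed the test in the 13 alternatives that test probe sets. Gsk3b 1451020_at stayed lower in those 13, and Gsk3a in all 14, which add the mean of a gene's probe sets. Most of these could not have changed either sign, because the groups did not overlap or the setting leaves the estimate as it is. The mean for Gsk3a is its only probe set. Rescaling could have changed the sign. For 1451020_at it gave −0.375 (arrays shifted), −0.527 (quantile normalisation) and −0.504 (cyclic loess). All probe sets past the test numbered 11 with arrays shifted to 1 median, 1 with a mean of at least 7, 5 at a threshold of 0.1 and 0 (without knock-in replicate 1) to 2 with 1 array left out, against 3 as reported. Members at an unadjusted p under 0.05 numbered 4 with arrays shifted to 1 median or an intensity trend, and with 1 array left out the count moved in both directions. The count over all 45037 probe sets moved too. With arrays shifted, 3768 were higher and 1294 lower at that threshold, against 2283 and 2530 as reported. The member counts are therefore no result about these genes. The median over member genes was 0.0598 with arrays shifted and −0.0639 after quantile normalisation. The shift also moved the share of higher genes among all probe sets at an unadjusted p under 0.05 from 47.4% to 74.4% (cyclic loess 60.8%). A block for the replicate number cannot change a difference in this balanced layout, so Gsk3a stayed at −0.417 (limma adjusted p = 0.447). With that block 4 probe sets passed the test, and no call of a member changed. Over all probe sets, the replicate 1 minus replicate 2 difference of wild-type arrays correlated with that of knock-in arrays at 0.0848. The numbers were not taken as pairs, because nothing in the labels says that they pair. Background correction could not be varied from RMA values.

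Differences near 0 changed sign, and the cause was not tested. Shifting the arrays gave 0.0465 for Frat2, 0.0429 for Apc, 0.0326 for Gsk3b 1439931_at, 0.0538 and 0.0490 for Gskip 1433700_at and 1435422_at, 0.0182 for Axin1 1426967_at, 0.0240 for Csnk1a1 1437923_at and 0.0068 for Btrc 1443142_at. Quantile normalisation gave −0.0556 for Gskip, −0.0290 for Ctnnb1, −0.0721 for Btrc, 0.00087 for Gsk3b 1439931_at and 0.0367 for Btrc 1443142_at. Cyclic loess gave 0.0118 for Frat2, −0.0460 for Gskip, −0.0269 for Ctnnb1, −0.0467 for Btrc, 0.0120 for Gsk3b 1439931_at, 0.0024 for Axin1 1426967_at and 0.0633 for Btrc 1443142_at. The mean of a gene's probe sets gave 0.0269 for Apc and −0.0066 for Csnk1a1. With 1 array left out, brightest probe sets ranged from −0.194 to 0.0208 (Gsk3b), −0.280 to 0.0242 (Frat1), −0.0971 to 0.0693 (Frat2), −0.118 to 0.177 (Gskip), −0.0286 to 0.233 (Axin1), −0.126 to 0.0910 (Apc), −0.0194 to 0.260 (Csnk1a1), −0.0239 to 0.0817 (Ctnnb1) and −0.0105 to 0.0359 (Btrc). Other probe sets ranged from −0.920 to 0.0222 (Gsk3b 1437001_at), −0.0601 to 0.183 (1434439_at), −0.177 to 0.121 (1439931_at), −0.364 to 0.175 (1439949_at), −0.0698 to 0.0566 (Gskip 1433700_at), −0.145 to 0.122 (1435422_at), −0.0054 to 0.232 (1431334_a_at), −0.117 to 0.0324 (Axin1 1426967_at), −0.0168 to 0.170 (Apc 1450056_at), −0.207 to 0.134 (Csnk1a1 1437923_at), −0.333 to 0.0823 (1430529_at) and −0.000199 to 0.0872 (Btrc 1457305_at).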
